A study of Mus musculus with 12 samples.

Results

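The genes described here encode 8 exchangers and cotransporters that move protons or bicarbonate across membranes: Slc9a2, Slc9a7, Slc9a8, Slc9a9, Slc4a3, Slc4a4, Slc4a5 and Slc4a7. They were chosen by gene symbol, and each was found as 1 of the 51826 entries of a table of gene counts from mouse heart. The table has 12 stranded, poly(A)-selected RNA-Seq libraries: each of 6 mice gave its atria and its ventricles, and the 4 groups hold 3 libraries each. CUG960 +dox mice (V119, V120 and V123) were homozygous for TREDT960I, a tetracycline-responsive transgene that places interrupted CUG repeats in exons of human DMPK, and hemizygous for MHCrtTA, whose reverse tetracycline transactivator is driven in cardiomyocytes by the α myosin heavy chain promoter. MHCrtTA +dox controls (V327, V333 and V334) were hemizygous for the transactivator alone. All mice were FvB females aged 10 weeks, and both groups ate doxycycline (dox) chow from postnatal day 1, so that transactivator and dox were common to the groups and the repeat transgene was not. The model is of myotonic dystrophy type 1, the transgene is expressed in cardiomyocytes, and the libraries are of whole chambers, which hold other cells too.

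SLC9 proteins, the Na+/H+ exchangers (NHE), let sodium in across a membrane in return for protons. At the plasma membrane they remove acid from the cell, and in the Golgi and endosomes they set the pH of the lumen against the vacuolar proton ATPase. SLC4 proteins carry bicarbonate: the Cl-/HCO3- exchangers (AE) load the cell with acid, while the Na+/HCO3- cotransporters (NBC) bring base in. In heart muscle, where contraction produces acid and intracellular pH affects calcium handling and the spread of excitation through gap junctions, the balance of these transporters holds cytosolic pH.

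By role, Slc9a2 encodes NHE2, a plasma membrane exchanger best known from epithelia, and Slc9a7 (NHE7), Slc9a8 (NHE8) and Slc9a9 (NHE9) encode exchangers of the trans-Golgi network, Golgi and endosomes. Slc4a3 encodes AE3, the Cl-/HCO3- exchanger of heart and brain. Slc4a4 (NBCe1) and Slc4a5 (NBCe2) encode electrogenic Na+/HCO3- cotransporters, and Slc4a7 (NBCn1) an electroneutral cotransporter. On GRCm38 the SLC9 genes lie at chr1:40680574-40769273 (Slc9a2, plus strand), chrX:20105754-20291807 (Slc9a7, minus strand), chr2:167421712-167477000 (Slc9a8, plus strand) and chr9:94669909-95230445 (Slc9a9, plus strand). The SLC4 genes lie on the plus strand at chr1:75546266-75562172 (Slc4a3), chr5:88886818-89239653 (Slc4a4), chr6:83219828-83304945 (Slc4a5) and chr14:14702279-14799940 (Slc4a7). All are protein coding in the GENCODE M21 annotation, and none shares exon bases with an overlapping gene.

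In CUG960 +dox mice, Slc9a8 was called lower in both chambers and Slc4a3 in atria, while Slc4a5 was called higher in atria and Slc9a7 in ventricles. The Slc4a5 call rested on few counts (9, 10 and 4 in control atria, 39, 50 and 35 in CUG960 +dox atria). It passed the filter on low counts only through its high group. The Slc9a7 call was lost without V119, V120, V327 or V333, and that of Slc4a3 without V119 or V334. The promoters of these 4 genes are shown because they are the members called in a chamber. Promoter windows run from 250 bases before to 50 bases after the start of the transcript (RefSeq, GRCm38.p6), and 7 of the 8 members matched such an entry. Capitals mark GGGCGG on either strand, the GC box. The windows are chr2:167421460-167421759 on the plus strand for Slc9a8, chr1:75546212-75546511 on the plus strand for Slc4a3, chrX:20291778-20292077 on the minus strand for Slc9a7 and chr6:83237125-83237424 on the plus strand for Slc4a5.
Slc9a8: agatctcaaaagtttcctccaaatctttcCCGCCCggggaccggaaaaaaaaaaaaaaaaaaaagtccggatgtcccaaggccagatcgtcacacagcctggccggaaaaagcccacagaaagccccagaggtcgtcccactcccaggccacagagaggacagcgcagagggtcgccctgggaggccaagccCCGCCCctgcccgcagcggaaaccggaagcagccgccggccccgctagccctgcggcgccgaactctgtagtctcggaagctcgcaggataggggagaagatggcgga
Slc4a3: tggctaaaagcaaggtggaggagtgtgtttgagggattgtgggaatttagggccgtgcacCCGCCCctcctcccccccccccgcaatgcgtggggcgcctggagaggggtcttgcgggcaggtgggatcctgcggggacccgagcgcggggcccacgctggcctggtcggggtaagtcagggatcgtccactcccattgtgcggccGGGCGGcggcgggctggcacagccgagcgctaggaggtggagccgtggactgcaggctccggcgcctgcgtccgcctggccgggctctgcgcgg
Slc9a7: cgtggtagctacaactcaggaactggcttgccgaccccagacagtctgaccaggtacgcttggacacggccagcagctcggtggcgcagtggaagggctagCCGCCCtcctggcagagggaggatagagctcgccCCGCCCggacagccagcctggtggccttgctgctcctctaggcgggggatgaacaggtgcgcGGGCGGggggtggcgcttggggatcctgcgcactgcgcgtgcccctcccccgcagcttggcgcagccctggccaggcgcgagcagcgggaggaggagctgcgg
Slc4a5: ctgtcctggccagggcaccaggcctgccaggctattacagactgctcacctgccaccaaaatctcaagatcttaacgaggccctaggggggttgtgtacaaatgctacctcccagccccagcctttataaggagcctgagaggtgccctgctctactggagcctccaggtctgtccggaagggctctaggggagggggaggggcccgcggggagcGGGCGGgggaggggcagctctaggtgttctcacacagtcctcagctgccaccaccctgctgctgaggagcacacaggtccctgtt

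The Slc9a8, Slc4a3 and Slc9a7 windows are rich in G and C, at 61.3%, 71.7% and 70.7%, against a median of 52.7% over all 32851 mouse promoter windows, and hold 22, 28 and 24 CpG dinucleotides. The Slc4a5 window is 62.7% G and C but holds 6 CpG, and it is the only window of these 4 with TATAAA on either strand. Its transcript start lies inside the gene as GENCODE draws it, downstream of the first annotated base, and the same holds for Slc4a3. GC boxes number 2 in the Slc9a8 window, 2 in that of Slc4a3, 3 in that of Slc9a7 and 1 in that of Slc4a5, and at least 1 is present in 35.7% of all windows. TATAAA is present in 13.6% of all windows. The E-box CANNTG, a palindrome and therefore counted on 1 strand, is absent from the Slc9a8 window, occurs 1 time in each of those of Slc4a3 and Slc9a7 and 3 times in that of Slc4a5, and is present in 72.3% of all windows. These matches describe the letters only.

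Library totals were between 116127966 and 160676189 counts, and CPM (counts scaled to a common library size) use TMM library sizes over the 12 libraries, at which 1 CPM stands for 105 to 174 counts. Values of 3 mice are given in the order V327, V333 and V334 for controls and V119, V120 and V123 for CUG960 +dox. The chambers matched their labels. The ventricular markers were higher in ventricles than in atria (6 of 6 in either genotype) and the atrial markers lower (8 of 8). Among the atrial libraries, V334 stood apart in its erythroid genes, which summed to 2766 CPM against 323 to 514 CPM in the other 5. All 8 members were tested in atria, and 7 in ventricles, where Slc4a5 was too low. A gene was called changed at an adjusted P value under 0.05 with a fold change of at least 1.5.

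**Figure D1:**
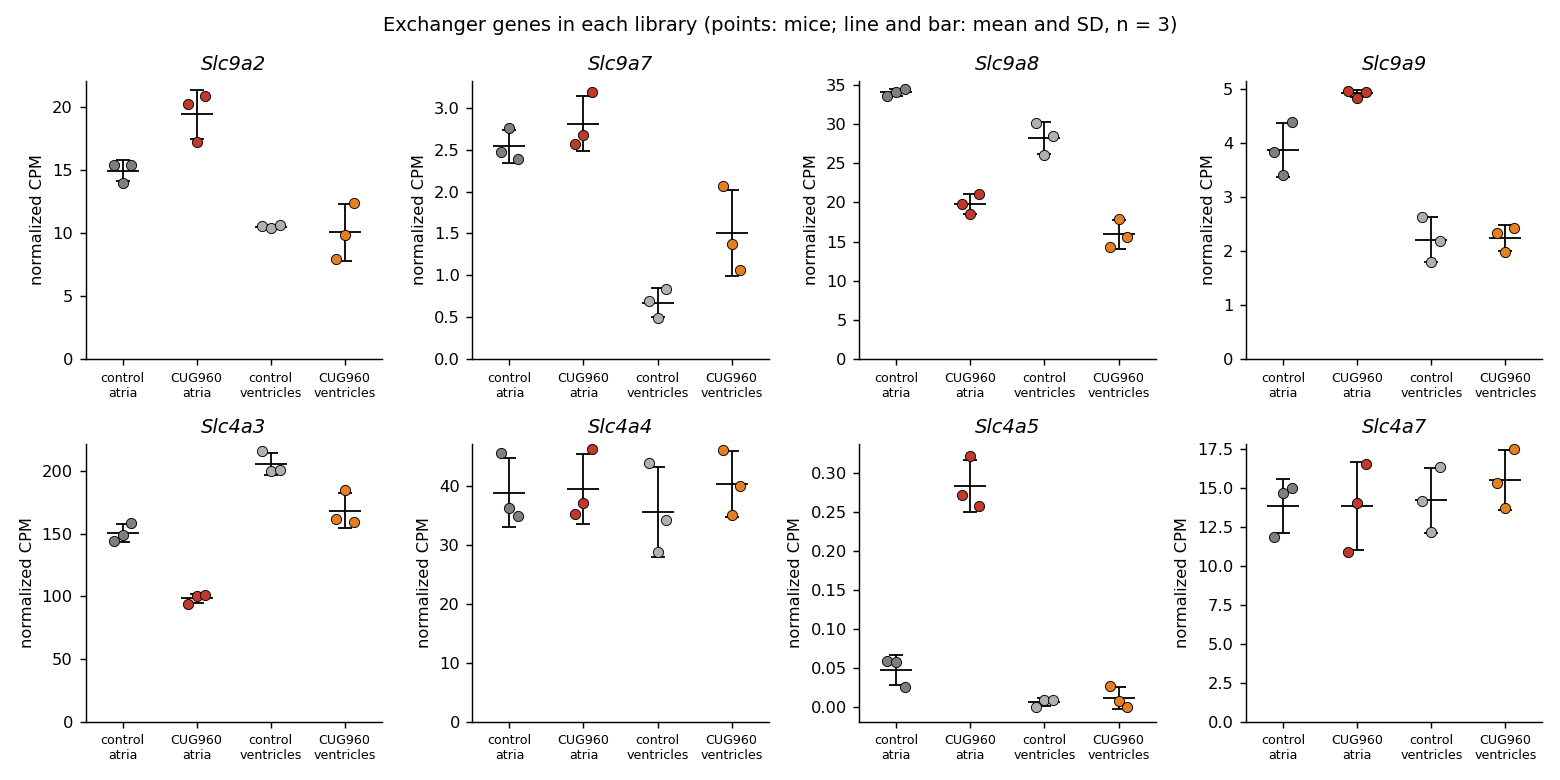
Normalized CPM of the 8 genes (linear vertical axes, 1 panel per gene) in the 4 groups, with a point per mouse and the mean and SD of 3 mice as line and bar. Slc9a8 separated the genotypes in both chambers, Slc4a3 was highest in control ventricles, and Slc4a5 stood above 0.2 CPM only in CUG960 +dox atria.

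Slc9a8 was the member that fell in both chambers. In atria it measured 33.6, 34.1 and 34.5 CPM in controls and 19.8, 18.5 and 21.0 CPM in CUG960 +dox mice. The 3 CUG960 +dox values lay far below the lowest control, and the spread within either group was small. The log2 fold change was -0.79 (SE 0.066, 95% interval -0.94 to -0.64, adjusted P value 0.000374). In ventricles the levels were 30.1, 26.1 and 28.4 CPM in controls and 14.3, 17.9 and 15.6 CPM in CUG960 +dox mice. Again no CUG960 +dox library reached the lowest control. The log2 fold change was -0.82 (SE 0.11, 95% interval -1.06 to -0.59, adjusted P value 0.00185). The effects in the chambers differed by -0.04 (log2, ventricles minus atria, 95% interval -0.31 to 0.23), with an adjusted P value of the interaction of 0.944.

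Slc9a7, the trans-Golgi exchanger, rose in ventricles, from 0.696, 0.484 and 0.830 CPM in controls (77, 51 and 93 counts) to 2.06, 1.37 and 1.06 CPM in CUG960 +dox mice (301, 189 and 133 counts). The groups did not overlap, but the CUG960 +dox mice were spread widely, with V119 highest and V123 lowest. The log2 fold change was 1.16 (SE 0.30, 95% interval 0.50 to 1.83, adjusted P value 0.0388). The call rested on few mice: the adjusted P value was 0.126 without V119, 0.0874 without V120, 0.1001 without V327 and 0.0973 without V333. In atria Slc9a7 measured 2.47, 2.76 and 2.39 CPM in controls and 2.57, 2.67 and 3.18 CPM in CUG960 +dox mice, with overlapping groups (log2 fold change 0.14, 95% interval -0.16 to 0.45, adjusted P value 0.514).

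Slc9a9, the exchanger of recycling endosomes, was at 3.83, 3.41 and 4.39 CPM in control atria and at 4.97, 4.84 and 4.96 CPM in CUG960 +dox atria. These groups did not overlap, yet the change missed the threshold (log2 fold change 0.34, 95% interval 0.07 to 0.62, adjusted P value 0.0901, and 0.0471 with DESeq2, under 1.5-fold). In ventricles it was at 2.64, 1.80 and 2.20 CPM in controls and 2.33, 1.98 and 2.42 CPM in CUG960 +dox mice, and the groups overlapped (log2 fold change 0.02, 95% interval -0.38 to 0.42, adjusted P value 0.957).

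Slc9a2, the plasma membrane exchanger of the set, was at 15.4, 14.0 and 15.4 CPM in control atria and at 20.2, 17.2 and 20.8 CPM in CUG960 +dox atria. The groups were apart, and the adjusted P value of 0.0277 was under the threshold, but the log2 fold change of 0.38 (SE 0.090, 95% interval 0.17 to 0.58) was under the limit of 1.5-fold. The adjusted P value was 0.0770 in the fit of all 12 libraries, and when a mouse was left out it was 0.0192 without V120 and between 0.0596 and 0.1001 without any of the other 5. In ventricles the levels were 10.5, 10.3 and 10.6 CPM in controls and 7.91, 9.85 and 12.4 CPM in CUG960 +dox mice. The control libraries were nearly equal, and the CUG960 +dox libraries fell on either side of them (log2 fold change -0.06, 95% interval -0.40 to 0.28, adjusted P value 0.840).

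Slc4a3, the acid-loading Cl-/HCO3- exchanger, was the most abundant member. It fell in atria, from 145, 149 and 159 CPM in controls to 94.2, 100.1 and 101.2 CPM in CUG960 +dox mice. Every CUG960 +dox library was below every control. The log2 fold change was -0.61 (SE 0.062, 95% interval -0.76 to -0.47, adjusted P value 0.000848), just past the limit of 1.5-fold. It fell under that limit, at an unchanged direction, without V119 (-0.58, adjusted P value 0.0069) and without V334 (-0.57, adjusted P value 0.0039). In ventricles Slc4a3 measured 216, 200.2 and 201.2 CPM in controls and 162, 185 and 159 CPM in CUG960 +dox mice, also without overlap. The log2 fold change there was -0.29 (SE 0.081, 95% interval -0.47 to -0.10) and missed the threshold in the fit of ventricles alone (adjusted P value 0.0553). The adjusted P value was 0.0169 in the edgeR fit of all 12 libraries, 0.0386 without V120 and 0.0224 with DESeq2, with a difference under 1.5-fold in each.

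The cotransporters that bring base into the cell fell into an abundant pair and a rare member. Slc4a4 measured 45.6, 36.2 and 34.9 CPM in control atria and 35.2, 37.2 and 46.3 CPM in CUG960 +dox atria, and the groups covered nearly the same range (log2 fold change 0.02, 95% interval -0.27 to 0.32, adjusted P value 0.928). In ventricles it measured 43.9, 28.8 and 34.2 CPM in controls and 46.2, 35.0 and 39.9 CPM in CUG960 +dox mice, with overlap (log2 fold change 0.18, 95% interval -0.16 to 0.53, adjusted P value 0.502). Slc4a7 measured 11.9, 14.7 and 15.0 CPM in control atria and 10.9, 14.1 and 16.6 CPM in CUG960 +dox atria, where the CUG960 +dox range enclosed that of the controls (95% interval of the log2 fold change -0.36 to 0.35, adjusted P value 0.996). In ventricles Slc4a7 was at 14.2, 12.2 and 16.3 CPM in controls and 15.4, 13.7 and 17.5 CPM in CUG960 +dox mice (log2 fold change 0.13, 95% interval -0.17 to 0.42, adjusted P value 0.590). Neither gene passed the test in a chamber, and the intervals allow changes of the size of the Slc9a2 difference in some of these cases.

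Slc4a5, the third cotransporter, was close to the limit of detection. Control atria gave 9, 10 and 4 counts (0.0589, 0.0574 and 0.0255 CPM) and CUG960 +dox atria 39, 50 and 35 counts (0.272, 0.322 and 0.257 CPM). The lowest CUG960 +dox library was thus far above the highest control, at a level that stayed under that of every other member. The summed counts, 124 against 23, gave a ratio of 5.998 per unit of library size (exact 95% interval 3.82 to 9.81, for counting error only), and edgeR a log2 fold change of 2.56 (SE 0.37, 95% interval 1.70 to 3.42, adjusted P value 0.00416). Slc4a5 passed the filter on low counts only through the CUG960 +dox group, so that a called change could only be a rise. In ventricles the controls gave 0, 1 and 1 counts and the CUG960 +dox mice 4, 1 and 0 counts. The ventricular ratio of 2.01 had an exact 95% interval of 0.328 to 21.1, so that no difference was detectable at this depth, and a count of 0 allows up to 3 counts in a library.

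In all, 3 of 8 members tested were called in atria (2 lower, and Slc4a5 higher, which passed the filter through its high group), against 5.49% of the 17650 genes tested there (3.37% higher, 2.12% lower). In ventricles 2 of 7 were called (1 higher, 1 lower), against 4.75% of 16909 genes (3.0% higher, 1.76% lower). The members were named with results of these data already known, so these counts describe the members only. Their median log2 fold change was 0.08 in atria and 0.02 in ventricles, next to -0.01 and -0.01 over all genes tested. The members therefore did not shift as a block: Slc9a8 and Slc4a3 were lower, Slc4a5 was called higher in atria and Slc9a7 in ventricles, and Slc4a4 and Slc4a7 were near 0. Without V334, whose atria stood apart in erythroid genes, Slc9a8 (-0.78, adjusted P value 0.00216) and Slc4a5 (2.27, adjusted P value 0.0134) were still called in atria, whereas Slc4a3 was under the fold limit (-0.57, adjusted P value 0.00389). On a per-length scale, the summed level of the 4 SLC9 members was 7.23 ± 0.16 CPM per kb in control atria and 6.55 ± 0.48 in CUG960 +dox atria, and 5.17 ± 0.34 and 3.98 ± 0.29 in ventricles (SD, n = 3). The summed level of the 4 SLC4 members, mostly Slc4a3, was 22.0 ± 0.58 and 16.1 ± 1.10 CPM per kb in atria and 28.2 ± 1.73 and 24.4 ± 1.17 in ventricles.

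**Figure D2:**
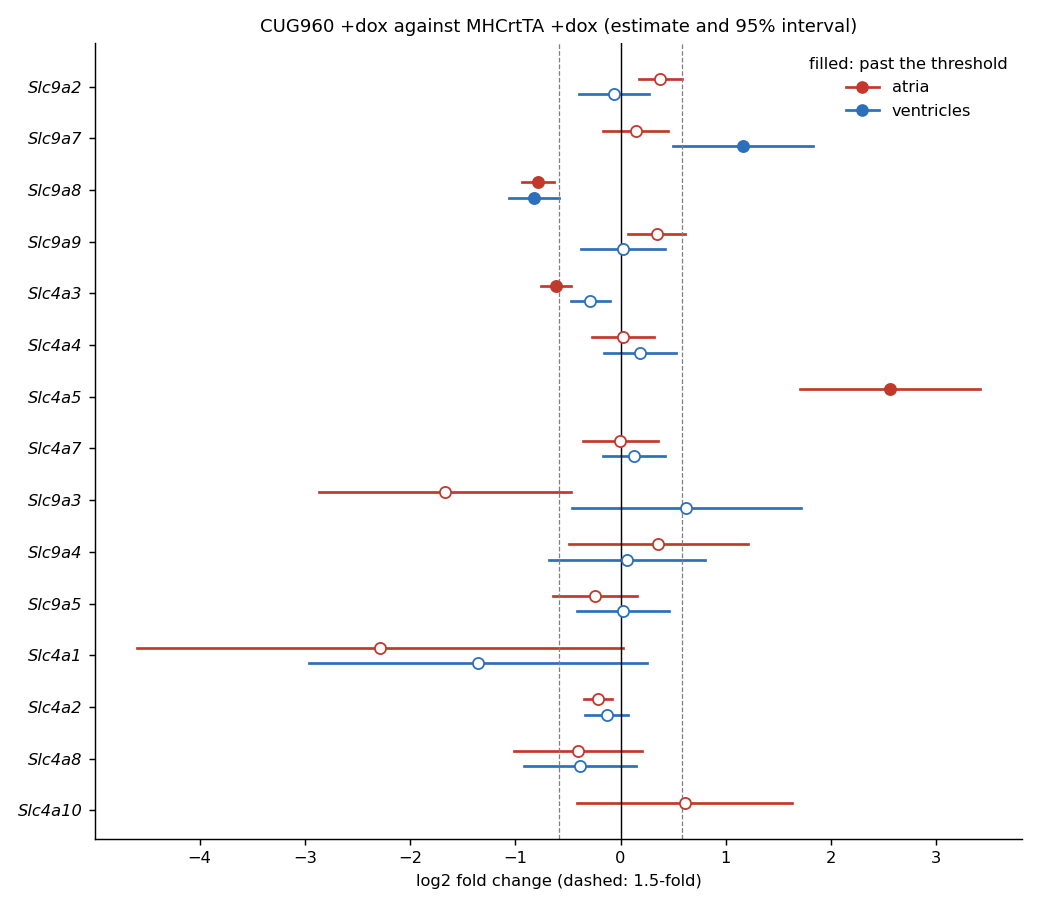
Log2 fold change of CUG960 +dox over MHCrtTA +dox (horizontal axis) for the 8 genes and 7 other SLC9 and SLC4 genes tested in atria, with 95% intervals; filled points passed the threshold and dashed lines mark 1.5-fold. Slc9a8 lay at -0.79 in atria and -0.82 in ventricles, Slc4a5 at 2.56 in atria with a wide interval, and open points beyond the dashed lines, such as Slc4a1 and Slc9a3, missed the adjusted P value.

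Whether a change differed between chambers was tested as an interaction over the 12 libraries. With edgeR, 0 of 8 members passed, against 1.38% of 18327 genes, and 3 members had an unadjusted P value under 0.05, as did 12.3% of all genes. For Slc4a3 the log2 fold change in ventricles minus that in atria was 0.33 (95% interval 0.11 to 0.54, unadjusted P value 0.00616, adjusted P value 0.169). For Slc9a7 it was 1.02 (95% interval 0.29 to 1.74, unadjusted P value 0.00982, adjusted P value 0.208). For Slc9a2 the difference was -0.44 (95% interval -0.85 to -0.04, unadjusted P value 0.0350, adjusted P value 0.361). A call in a single chamber is therefore not shown to be particular to that chamber for any of these genes. The same holds for Slc4a5, whose interval was -4.91 to 1.57 (adjusted P value 0.731).

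Ventricles were then compared with atria of the same mice, in a fit without a term for the mouse, so that the intervals do not use the pairing. Slc9a7, Slc9a9 and Slc4a5 were lower in ventricles in both genotypes, and Slc9a2 in CUG960 +dox mice, where Slc4a3 was higher. In controls, 3 of 8 members were called, all lower in ventricles, against 35.0% of 18327 genes (16.5% higher, 18.5% lower). In CUG960 +dox mice 5 of 8 were called, 4 lower and 1 higher, against 33.1% (15.8% higher, 17.3% lower). Slc4a5 passed the filter on low counts only through CUG960 +dox atria, so that a chamber call of it in these mice could only favour atria. With at least 10 counts in every library, which leaves it out, the counts are 2 and 4. These comparisons use the same libraries as those of genotype and are not independent of them.

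Slc9a7 was 2.54 ± 0.20 CPM in control atria and 0.670 ± 0.17 in control ventricles (SD, n = 3), with every ventricle below every atrium (log2 fold change -1.92, 95% interval -2.45 to -1.39, adjusted P value 2.28e-05). In CUG960 +dox mice the gap was narrower, from 2.81 ± 0.33 to 1.499 ± 0.51 CPM (log2 fold change -0.90, 95% interval -1.41 to -0.40, adjusted P value 0.00525), and it missed the threshold without V123 (-0.61, adjusted P value 0.0705). Slc9a9 was lower in ventricles with a log2 fold change of -0.81 in controls (from 3.88 ± 0.50 to 2.21 ± 0.42 CPM, adjusted P value 0.000485) and -1.13 in CUG960 +dox mice (adjusted P value 2.98e-05). Slc9a7 and Slc9a9 were therefore called higher in atria in either genotype. Markers of other cells differed between chambers too. In controls the median was negative for fibroblasts (-0.84), leukocytes (-0.96), epicardial cells (-6.90) and adipocytes (-0.50). It was also negative for neurons and Schwann cells (-0.41) and sinoatrial cells (-0.49). It was positive for cardiomyocytes (0.57), endothelial cells (0.20), smooth muscle cells (0.78) and erythroid cells (0.88). The part of these cells in the chamber differences was not tested.

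Slc9a2 was also lower in ventricles. Its log2 fold change between chambers was -0.51 in controls (95% interval -0.80 to -0.22, adjusted P value 0.00551), under the fold limit, and -0.95 in CUG960 +dox mice (95% interval -1.24 to -0.66, adjusted P value 5.18e-05), past it. Slc4a5 had 23 counts in control atria and 2 in control ventricles, a ratio of 7.80 with an exact 95% interval of 1.93 to 68.2. That call (adjusted P value 0.0165) was lost without V327 (0.116) and without V333 (0.0707). In CUG960 +dox mice the counts were 124 and 5, a ratio of 23.3 (exact 95% interval 9.73 to 73.1, adjusted P value 7.99e-05).

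Slc4a3 alone among the called members was higher in ventricles. Its mean was 151 ± 7.42 CPM in control atria and 206 ± 8.78 in control ventricles (log2 fold change 0.45, 95% interval 0.30 to 0.60, adjusted P value 0.000126), under the fold limit. In CUG960 +dox mice the means were 98.5 ± 3.73 and 169 ± 14.2 CPM, and the difference passed it (log2 fold change 0.77, 95% interval 0.62 to 0.93, adjusted P value 1.08e-06). Slc9a8 was slightly lower in ventricles, with a log2 fold change of -0.27 in controls (adjusted P value 0.0182) and -0.31 in CUG960 +dox mice (adjusted P value 0.00942), both under the fold limit. Slc4a4 (log2 fold change -0.13 in controls and 0.03 in CUG960 +dox mice, adjusted P values 0.528 and 0.888) and Slc4a7 (0.04 and 0.16, adjusted P values 0.856 and 0.398) did not pass the test.

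**Figure D3:**
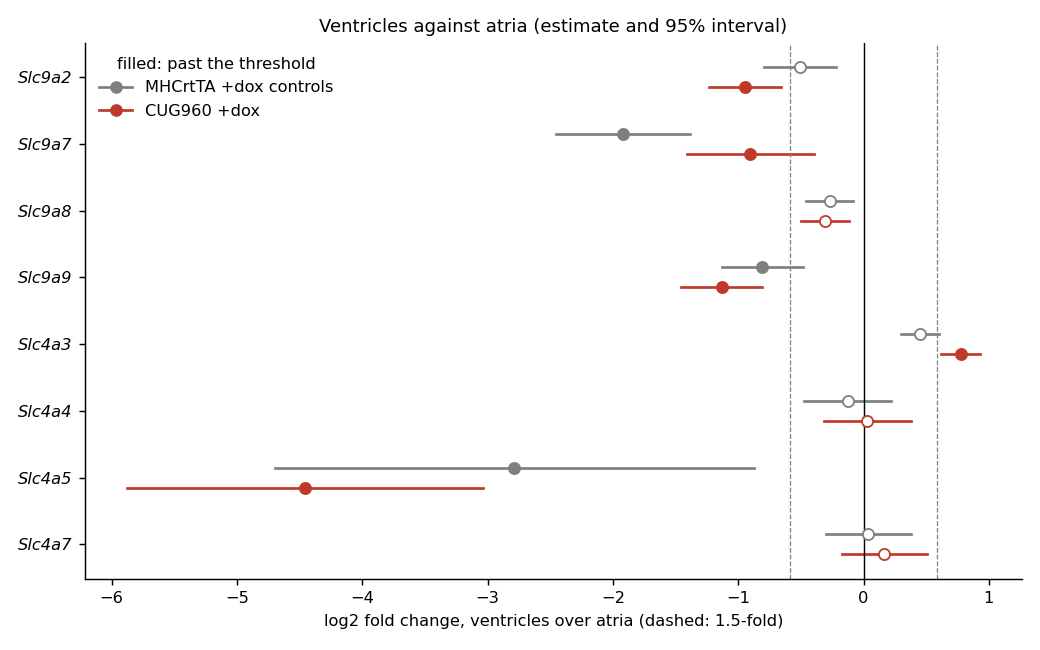
Log2 fold change of ventricles over atria (horizontal axis) for the 8 genes in controls and in CUG960 +dox mice, with 95% intervals; filled points passed the threshold and dashed lines mark 1.5-fold. Slc9a7, Slc9a9 and Slc4a5 were past the threshold on the side of atria in both genotypes, and Slc4a3 was on the side of ventricles.

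To compare levels between genes, CPM were divided by the exon length of each gene in kb. Slc4a3 led in all 4 groups, with 17.5 CPM per kb in control atria, 11.5 in CUG960 +dox atria, 23.9 in control ventricles and 19.6 in CUG960 +dox ventricles. In control atria Slc9a8 (3.74) and Slc4a4 (3.60) followed with overlapping ranges, then Slc9a2 (2.14), Slc4a7 (0.912), Slc9a9 (0.683) and Slc9a7 (0.665), of which the last 2 overlapped, and Slc4a5 (0.00815). In CUG960 +dox atria Slc9a8 (2.17) came after Slc4a4 (3.66) and Slc9a2 (2.78), so that it moved from position 2 to position 4. Slc4a7 (0.911) and Slc9a9 (0.867) overlapped there, and Slc9a7 (0.736) and Slc4a5 (0.0489) came last.

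In control ventricles the order was Slc4a4 (3.30) and Slc9a8 (3.10), which overlapped, then Slc9a2 (1.502), Slc4a7 (0.936), Slc9a9 (0.390), Slc9a7 (0.175) and Slc4a5 (0.00106). In CUG960 +dox ventricles Slc4a4 (3.73) stood above Slc9a8 (1.75), which now overlapped Slc9a2 (1.44), and Slc9a2 overlapped Slc4a7 (1.02). Slc9a9 (0.395) and Slc9a7 (0.392) also overlapped, and Slc4a5 (0.00199) remained last.

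**Figure D4:**
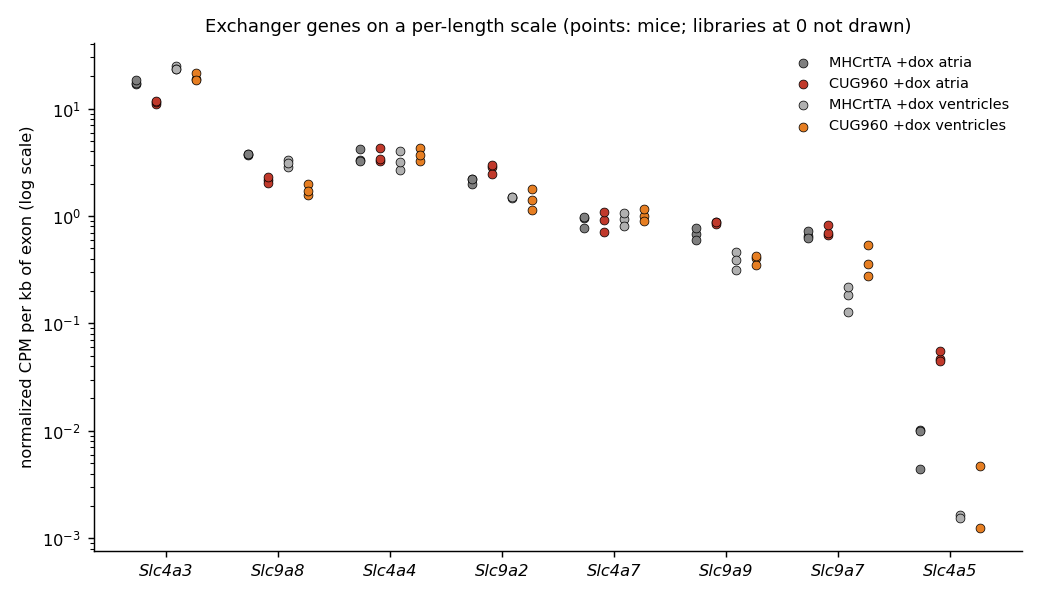
Normalized CPM per kb of exon (vertical axis, log scale) of the 8 genes, sorted by their level in control atria, with a point per mouse in each of the 4 groups; libraries at 0 are not drawn. Slc4a3 is highest throughout, between 11.5 and 23.9 CPM per kb on average, and Slc4a5 lowest.

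The genes whose profile over the 12 libraries was most like that of a called member were found by Pearson correlation of log2 CPM among 12257 genes. The points share 4 groups and the mice, so that r describes likeness of pattern only. For Slc9a8 they were Npr2 (r = 0.977), a receptor of C-type natriuretic peptide, E2f6 (r = 0.974), a transcriptional repressor, and Crtc2 (r = 0.967), a coactivator of CREB. Crtc2 itself was called lower in both chambers (log2 fold change -1.07 in atria and -1.13 in ventricles), whereas Npr2 (-0.48 and -0.49) and E2f6 (-0.37 and -0.35) were not called. For Slc4a3 they were Coro6 (r = 0.988), a coronin, Klc2 (r = 0.987), a kinesin light chain, and BC034090 (r = 0.976), of which Coro6 (-0.83) and BC034090 (-0.64) were called in atria. For Slc9a7 they were Camkk2 (r = 0.980), a calmodulin-dependent kinase kinase, Pcdhga11 (r = 0.979), a protocadherin whose exons are partly shared within its cluster, and Csrnp3 (r = 0.975). Of these Csrnp3 was called, in ventricles (log2 fold change 2.59).

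The rest of both families gave no call between genotypes with edgeR. Of the other 14 SLC9 and SLC4 genes, 9 were tested in atria and 8 in ventricles, and edgeR called 0 in either chamber (3 and 1 had an unadjusted P value under 0.05, against 30.2% of all genes in atria and 25.7% in ventricles, and DESeq2 called 1 and 0). Their median log2 fold change was -0.25 in atria and -0.05 in ventricles.

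Slc4a2, the widely expressed exchanger AE2, was at 36.8 ± 0.75 CPM in control atria and 31.7 ± 1.2 in CUG960 +dox atria (SD, n = 3, log2 fold change -0.21, adjusted P value 0.0415), and its log2 fold change in ventricles was -0.13 (adjusted P value 0.412). It shares 1141 exon bases with Fastk on the opposite strand. Slc4a8, an electroneutral Na+-driven Cl-/HCO3- exchanger, was higher in ventricles than in atria (2.87 and 0.979 CPM in controls) but was not called between genotypes (log2 fold change -0.40 in atria and -0.39 in ventricles, adjusted P values 0.351 and 0.342). Slc9a5 was near 1 CPM in all groups and was not called.

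Among partners of these transporters, the carbonic anhydrases interconvert CO2 and bicarbonate. Of 11 tested in each chamber, 1 was called lower in atria, against 2.12% of all genes, and 2 in ventricles, against 1.76%, and 0 were called higher. Of the 11, 5 in each chamber had an unadjusted P value under 0.05, against 30.2% and 25.7% of all genes, and DESeq2 called 2 in atria and 3 in ventricles. Their median log2 fold change was -0.39 in atria and -0.52 in ventricles, next to -0.01 over all genes in either chamber. Car4, a membrane-anchored carbonic anhydrase, measured 19.98, 25.5 and 23.1 CPM in control ventricles and 10.4, 13.3 and 16.1 CPM in CUG960 +dox ventricles. The groups were apart (log2 fold change -0.78, SE 0.16, adjusted P value 0.0154). Car3, a cytosolic carbonic anhydrase of low activity that is abundant in fat and skeletal muscle, measured 14.1, 7.90 and 11.6 CPM in control ventricles and 3.07, 1.34 and 5.63 CPM in CUG960 +dox ventricles (log2 fold change -1.74, SE 0.42, adjusted P value 0.0317). Car8, which lacks catalytic activity, fell in atria from 12.9 ± 3.1 to 8.13 ± 0.40 CPM (SD, n = 3, log2 fold change -0.67, SE 0.16, adjusted P value 0.0260).

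Slc16a7 encodes MCT2, a high-affinity proton-coupled carrier of lactate and pyruvate, and was the only gene of the other acid-base lists to pass the threshold. In atria it rose from 6.12, 5.59 and 5.09 CPM to 9.23, 9.09 and 11.6 CPM (log2 fold change 0.83, SE 0.12, adjusted P value 0.00433). In ventricles it rose from 7.84, 6.19 and 8.53 CPM to 23.2, 13.4 and 19.2 CPM (log2 fold change 1.31, SE 0.19, adjusted P value 0.00383). Neither chamber showed overlap between the groups. It was the 1 gene called of the 6 tested in each chamber on the list of monocarboxylate transporters and associated proteins, against 3.37% of all genes called higher in atria and 3.0% in ventricles.

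No gene of the remaining lists was called by edgeR, and their numbers at an unadjusted P value under 0.05 stand against 30.2% of all genes in atria and 25.7% in ventricles. Of the NHE partner proteins, 7 were tested in each chamber (0 called, 5 in atria and 2 in ventricles at an unadjusted P value under 0.05, 1 and 0 called by DESeq2). Of the SLC26 anion exchangers, 8 were tested in atria and 6 in ventricles (0 called, 2 and 1 at an unadjusted P value under 0.05, 0 by DESeq2). Of the subunits of the vacuolar proton ATPase, against which the organellar exchangers work, 20 and 21 were tested (0 called, 7 and 7 at an unadjusted P value under 0.05, 0 by DESeq2), with a median log2 fold change of 0.04 in atria and -0.01 in ventricles.

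**Figure D5:**
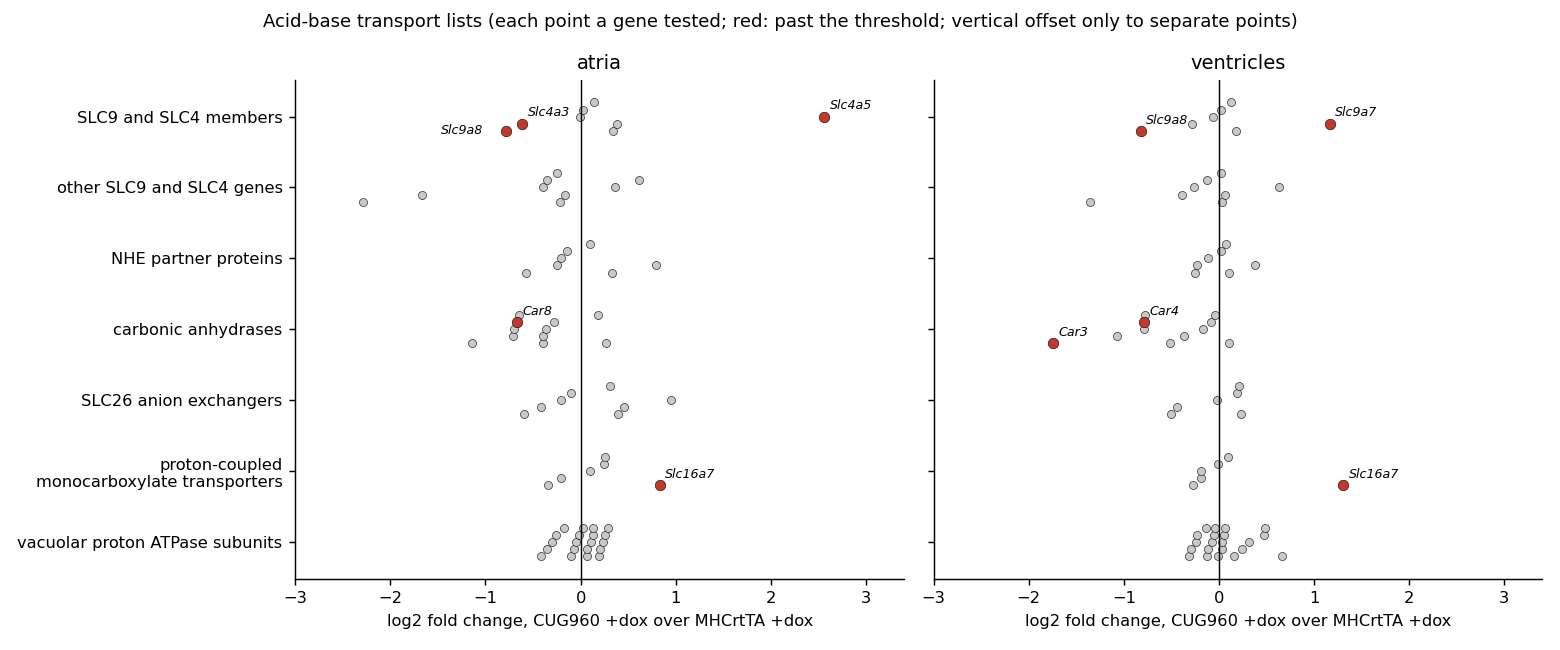
Log2 fold change of CUG960 +dox over MHCrtTA +dox (horizontal axes) of each gene tested in 7 lists of acid-base transport, in atria (left) and ventricles (right); red points passed the threshold and vertical offsets only separate the points. Slc16a7 was higher in both panels, and the called carbonic anhydrases (Car8, Car3 and Car4) were lower.

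In whole chambers, fewer cells of a type and less RNA per cell cannot be told apart, so levels of markers of other cells are given beside the members. An unadjusted P value under 0.05 was reached by 30.2% of all genes in atria and 25.7% in ventricles, and a list is said to be led by the gene with its highest mean CPM over the 12 libraries. The cardiomyocyte list, led by Myh6, summed to 42692 to 44519 CPM in control atria and 45317 to 47267 CPM in CUG960 +dox atria. Without Myh6 it summed to 17389 to 19242 CPM in control atria and 15867 to 17134 CPM in CUG960 +dox atria, where Slc9a8 and Slc4a3 fell. In atria 7 of its 10 genes were negative (median -0.17), 7 had an unadjusted P value under 0.05, and 0 were called by edgeR or DESeq2. In ventricles 5 of the 10 were negative (median -0.05), and Ryr2 alone was called (-0.67). Endothelial markers, led by Pecam1, were negative in 8 of 8 genes in either chamber, with medians of -0.38 and -0.37, and Pecam1 (-0.71) and Tek (-0.62) were called lower in atria, where Slc9a8 and Slc4a3 also fell. In ventricles 0 of 8 endothelial genes were called by edgeR or by DESeq2, while 7 had an unadjusted P value under 0.05. Fibroblast markers, led by Dcn, were also negative in 8 of 8 genes in atria, with a median of -0.33, 7 of them at an unadjusted P value under 0.05, and Postn was called (-0.73). They summed to 2245, 2584 and 2626 CPM in control atria and 2127, 2214 and 1888 CPM in CUG960 +dox atria. In ventricles 5 of the 8 were positive, with a median of 0.01. Their part in the results was not tested.

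Slc4a5 rose in atria. Of 7 sinoatrial markers tested there, Hcn4 (log2 fold change 2.55) and Vsnl1 (1.47) were called higher and the other 5 had negative log2 fold changes, with a median of -0.16 over the list. That list, led by Smoc2, summed to 75.3, 69.2 and 72.6 CPM in controls and 81.6, 78.4 and 74.8 CPM in CUG960 +dox mice. Without Smoc2 it summed to 34.9, 23.0 and 22.0 CPM in control atria and 35.3, 35.8 and 38.1 CPM in CUG960 +dox atria. Every CUG960 +dox atrium was then above every control, V119 only just. Epicardial and mesothelial markers, led by Upk3b, summed to 280, 279 and 258 CPM in control atria, to 306, 278 and 176 CPM in CUG960 +dox atria and to at most 7.99 CPM in ventricles, with 0 of 6 called by edgeR between genotypes in either chamber (1 and 2 at an unadjusted P value under 0.05, and 0 and 1 by DESeq2). Of 8 smooth muscle and pericyte markers, led by Rgs5, 5 were negative in atria (median -0.21), where Tagln alone was called (1.21). In ventricles 7 of the 8 were negative (median -0.36), and Tagln (-0.63) and Myh11 (-0.65) were called lower. Of 5 ventricular markers tested in atria, 2 were positive and 3 negative (median -0.55). An unadjusted P value under 0.05 was reached by 2, and Hey2 alone was called (-0.67). The list summed to 1316, 1367 and 1501 CPM in control atria and 1439, 1739 and 1536 CPM in CUG960 +dox atria. Nearly all of this came from genes other than Myl2, which leads the list over the 12 libraries. Myl2 itself was at 33.5, 8.82 and 11.7 CPM in control atria and 9.46, 10.4 and 9.02 CPM in CUG960 +dox atria. In ventricles 5 of 6 were positive (median 0.25), 4 had an unadjusted P value under 0.05, and 0 were called by edgeR or DESeq2. The part of these cells in the Slc4a5 values was not tested.

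Slc9a7 rose in ventricles towards its atrial level, and Nppa, the most abundant atrial marker, rose there too (log2 fold change 1.301), while Bmp10 of the same list fell (-4.06). The atrial list summed to 136, 134 and 209 CPM in control ventricles and to 134, 290 and 376 CPM in CUG960 +dox ventricles, and 5 of its 8 genes were positive there (median 0.24). Without Nppa it summed to 87.4, 79.3 and 124 CPM in control ventricles and 47.0, 65.1 and 225 CPM in CUG960 +dox ventricles. V119 and V120 were then below every control, and V123 above. Nppa itself was at 48.6, 54.4 and 84.8 CPM in control ventricles and at 86.6, 224 and 151 CPM in CUG960 +dox ventricles. In atria the list summed to 30555, 29832 and 27756 CPM in controls and 24513, 25438 and 23287 CPM in CUG960 +dox mice. The sum was thus lower in every CUG960 +dox atrium, beside Slc9a8 and Slc4a3. Without Nppa the sums were closer, at 14082, 13250 and 13128 CPM in control atria and 13111, 13057 and 11454 CPM in CUG960 +dox atria. Of the 8 genes, 5 were positive in atria (median 0.03). An unadjusted P value under 0.05 was reached by 2, and 0 were called by edgeR or DESeq2. The part of these lists in the values of the members was not tested. The adipocyte list, nearly all Fabp4, was lower in CUG960 +dox ventricles (338, 388 and 423 CPM) than in controls (612, 639 and 499 CPM), so that this sum describes Fabp4. Without Fabp4 it summed to 4.82, 3.69 and 4.90 CPM in control ventricles and 1.14, 0.572 and 2.60 CPM in CUG960 +dox ventricles. Fabp4 (-0.60) and Plin1 (-1.86) were called lower there, where Car3 and Car4 were lower too. The part of any cell type in the Car3 and Car4 values was not tested. Of 5 neuronal and Schwann cell markers tested in ventricles, Uchl1, their most abundant gene, rose (0.83) and the other 4 had negative log2 fold changes, 1 of them called lower, with a median of -0.56. Without Uchl1 the list summed to 7.75, 7.52 and 7.70 CPM in control ventricles and 3.12, 4.50 and 6.32 CPM in CUG960 +dox ventricles. No erythroid gene (led by Hbb-bs) or leukocyte gene (led by Csf1r) was called by edgeR in either chamber. The 5 erythroid genes were all negative in both (median -1.71 in atria and -0.48 in ventricles), as were the 8 leukocyte genes (median -0.18 and -0.10). Of these, 5 and 2 erythroid genes and 1 and 1 leukocyte genes had an unadjusted P value under 0.05, and DESeq2 called 0 and 0 of the former and 1 and 1 of the latter. The atrial erythroid sums were 514, 323 and 2766 CPM in controls and 440, 323 and 352 CPM in CUG960 +dox mice. Apart from the control V334 these overlapped. Mitochondrially encoded transcripts took 20.5%, 19.6% and 20.5% of counts in control ventricles and 18.4%, 15.3% and 17.3% in CUG960 +dox ventricles, and between 10.9% and 12.2% in atria. Without them in the library sizes, Slc9a8 (-0.82) and Slc9a7 (1.16) were still called in ventricles.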

How the data were processed

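Atria and ventricles of 6 mice were sequenced as 12 libraries. The authors aligned reads to GRCm38 (mm10) and estimated gene counts with RSEM 1.3.1; the deposited expected counts are whole numbers, unscaled and unfiltered, and the strand setting of the counting is not given in the sources used here. Groups were compared in edgeR 4.0.16 (R 4.3.3) by the quasi-likelihood test after filterByExpr and TMM scaling, with Benjamini-Hochberg adjustment over all genes tested. The 12 libraries entered a single fit for chamber and interaction comparisons; the interaction had no fold limit. A call needed both an adjusted P value below 0.05 and at least 1.5-fold difference, the limit given beside the paper's numbers of genes; its methods give 1.5 on the log2 scale, which was run as an alternative and leaves 1 member in atria and 0 in ventricles. Libraries of a group are separate mice, and no pair agreed within counting noise (chi-square per degree of freedom 41.3 to 122). Intervals of count ratios cover counting error only.

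The members and gene lists were chosen with earlier results of these data known. All 8 members were named, further SLC9 and SLC4 genes with at least 1 CPM in a group, list genes called in a chamber, the most abundant marker of each list, and the 3 genes nearest to each called member with at least 1 CPM. Certain genes that meet this rule are not reported here. Exon lengths and positions are from GENCODE M21, and promoters from RefSeq; another annotation release than that used for counting can differ in length. Atria and ventricles of a number come from the same mouse, and after group means were removed their deviations had Pearson's r of 0.0300 to 0.111 over genes (other pairs -0.109 to 0.0572). Steps were tested on simulated data. Alternatives were DESeq2 1.42.0, RLE and upper quartile scaling, mitochondrial transcripts left out, other count filters and fold limits, a single fit of all libraries, the mouse as replicate block, and leaving out each mouse. Figures were drawn with matplotlib 3.10.9.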

Additional observations from a re-analysis of the deposited data

How the results depend on the processing

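Over 509 recomputed values of single members, 476 kept direction and call, 0 called values changed sign, 13 lost the call (9 by leaving out a mouse and 4 by the fold limit), 1 gained it and 19 uncalled values changed sign. The number of members called in atria, 3, was 2 with at least 10 counts in every library (which leaves out Slc4a5), 4 with no fold limit, 1 where the limit was 1.5 on the log2 scale, and 2 to 3 when a mouse was left out. In ventricles, 2 members became 0 at a limit of 1.5 on the log2 scale, and 1 to 2 when a mouse was left out: Slc9a7 was lost without V119, V120, V327 or V333, and Slc9a8 was kept. DESeq2 called 3 members in atria and 2 in ventricles. With the mouse as replicate block, the members called between chambers stayed at 3 in controls and 5 in CUG960 +dox mice, and 0 passed the interaction; leaving out a mouse gave 2 to 3, 4 to 5 and 0, and at least 10 counts in every library 2, 4 and 0. The block changed no call of a member. Slc4a5 has under 5 counts in each ventricular library, and there depth is the limit.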
